A study of Homo sapiens with 48 samples.

Results

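The 9 genes described here encode chemokines of the senescence-associated secretory phenotype, the mixture of cytokines, chemokines and proteases released by senescent cells. They were taken by name from the deposited gene table, as the rows IL8 (the older symbol of CXCL8), CXCL1, CXCL2, CXCL3, CXCL5, CXCL6, CXCL12, CCL2 and CCL20. All 9 were among the 9991 genes tested, out of 19847 rows of which 19509 held counts. IMR90 cells are human fetal lung fibroblasts, and the ER:RAS derivative carries oncogenic HRAS G12V fused to an estrogen receptor domain, so that 4-hydroxy-tamoxifen (4OHT) activates RAS and DMSO is the vehicle control. Every library came from this one engineered line. Cells were given 4OHT or DMSO for 6 days, transfected with siRNA and kept for 2 more days in medium with 0.5% serum. Each treatment was combined with non-targeting siRNA (siNT1 and siNT2), siRNA against SF3B1 (siSF3B1-13 and siSF3B1-16) or siRNA against RBM39 (siRBM39-06 and siRBM39-08). With 4 libraries for each siRNA, this gave 6 groups of 8 libraries and 48 libraries in all, sequenced after mRNA capture.

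Chemokines are small secreted proteins that guide leukocytes through G-protein-coupled receptors. IL8 and CXCL1, CXCL2, CXCL3, CXCL5 and CXCL6 share a Glu-Leu-Arg motif before their first cysteines, bind CXCR2 and attract neutrophils, and their transcription is driven in many cells by NF-kB downstream of IL-1. CXCL12 lacks that motif, is made constitutively by many fibroblasts and binds CXCR4. Of the CC chemokines, CCL2 attracts monocytes through CCR2, and CCL20 attracts CCR6-bearing lymphocytes and dendritic cells. SF3B1 is the U2 snRNP subunit that helps to recognise the branch point of an intron, and RBM39 is an RNA-binding splicing factor related to U2AF.

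The 6 genes with the Glu-Leu-Arg motif lie together on chromosome 4, over 358627 bases from 74606286 to 74964912 in GRCh37. CXCL12 lies on chromosome 10, CCL2 on chromosome 17 and CCL20 on chromosome 2. The 120 bases before the start site are shown for those 6 genes and for CXCL12 and CCL20. The 6 and CCL20 went up and CXCL12 went down in the 4OHT-treated cells described below. They were read from RefSeq (GRCh38.p14), which held a promoter for 8 of the 9 genes. Capitals mark the letters GGAATTTCC, a kappa-B-like word that reads as GGAAATTCC on the other strand. The windows were chr4:73740449-73740568 (plus strand) for IL8, chr4:73869273-73869392 (plus) for CXCL1, chr4:74099196-74099315 (minus) for CXCL2, chr4:74038690-74038809 (minus) for CXCL3, chr4:73998678-73998797 (minus) for CXCL5, chr4:73836558-73836677 (plus) for CXCL6 and chr10:44385098-44385217 (minus) for CXCL12 and chr2:227813722-227813841 (plus) for CCL20.
IL8: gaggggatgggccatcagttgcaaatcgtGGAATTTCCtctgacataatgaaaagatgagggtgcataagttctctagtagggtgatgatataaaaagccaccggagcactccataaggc
CXCL1: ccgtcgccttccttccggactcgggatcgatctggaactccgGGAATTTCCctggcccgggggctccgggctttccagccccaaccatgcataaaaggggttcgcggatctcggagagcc
CXCL2: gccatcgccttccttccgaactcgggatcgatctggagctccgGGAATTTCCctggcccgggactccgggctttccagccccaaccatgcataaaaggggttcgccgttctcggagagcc
CXCL3: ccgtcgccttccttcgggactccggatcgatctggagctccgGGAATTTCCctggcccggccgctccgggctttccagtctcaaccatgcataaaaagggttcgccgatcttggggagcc
CXCL5: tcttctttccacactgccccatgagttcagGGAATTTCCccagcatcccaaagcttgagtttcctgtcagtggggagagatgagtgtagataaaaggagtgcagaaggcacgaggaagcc
CXCL6: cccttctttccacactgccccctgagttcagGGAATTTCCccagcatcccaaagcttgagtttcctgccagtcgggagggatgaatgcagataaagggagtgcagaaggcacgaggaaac
CXCL12: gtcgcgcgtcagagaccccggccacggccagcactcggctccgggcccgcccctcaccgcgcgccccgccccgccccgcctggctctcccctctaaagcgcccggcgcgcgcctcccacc
CCL20: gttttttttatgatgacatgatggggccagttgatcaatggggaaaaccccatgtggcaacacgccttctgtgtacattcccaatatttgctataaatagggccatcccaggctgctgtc

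In 6 of the 8 genes with a promoter, and not in CXCL12 or CCL20, the word GGAATTTCC was found, in each case on the strand of the gene and starting between base -91 and base -77. Of all 35116 RefSeq promoters of 300 bases, 162 (0.461%) held it on either strand. Only this exact word was searched, so kappa-B sites spelled otherwise, in CCL20 or CXCL12, would have been missed. The 6 genes with the word are related genes of 1 cluster and are not 6 independent cases beside that share. The AP-1-like word TGACTCA, searched on both strands, was found in 1 of the 8, IL8, at base -137 and so before the window shown, against 4.95% of all promoters. CXCL1 and CXCL3 matched at 109 of the 120 positions (90.8%). CXCL1, CXCL2 and CXCL3 are close paralogs, as are CXCL5 and CXCL6, so the split of reads within these groups depends on how the authors counted reads shared by near-identical copies.

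The libraries held 31467221 to 52734636 counts, and no replicate pair of 72 agreed within sampling noise. The labels do not say whether libraries of a group came from separate cultures, so the adjusted p-values (edgeR quasi-likelihood test, Benjamini-Hochberg over 9991 genes) measure the spread between these libraries. They do not measure the spread between siRNAs, as the 8 libraries of a group were taken as replicates although 4 share each siRNA. The knockdowns were seen in the targets: in 4OHT, SF3B1 fell by 3.59 on the log2 scale with siSF3B1 and RBM39 fell by 2.89 with siRBM39, while RBM39 rose by 1.06 with siSF3B1. IL6 (log2 fold change 6.48) and CDKN1A (0.83) rose with 4OHT and LMNB1 fell by 2.47, while HRAS rose by 0.77. In CPM, the count of a gene scaled to the same library total throughout, fibroblast markers (10 of 10 present) summed to 54110 to 60500 CPM in DMSO siNT and 14900 to 15770 CPM in 4OHT siNT. Leukocyte markers (7) summed to at most 1.37 CPM in any library, with PTPRC, CD3E, ITGAM and MS4A1 below 0.1 CPM at the median. Endothelial markers (4 of 5 present) summed to 19.6 to 54.4 CPM. The part of these shifts in the results was not tested.

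One library stood apart, the 4OHT-treated siRBM39-08 replicate 4. Its epithelial markers summed to 39.1 CPM, 27.8 CPM of them KRT5, where the rest of the group had sums of 4.24 to 7.51 CPM. SF3B1 was at 207 CPM in that library and at 402 to 444 CPM in the rest. The results on which it bears most are given with and without it.

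The first comparison asks how RAS activation changed the chemokines in cells with an unperturbed spliceosome. With 4OHT, 8 of the 9 genes rose and CXCL12 fell. Over all genes tested, 39% were called higher and 39.1% lower. The median log2 fold change was 10.5 for the 9 genes, also with CCL20 set at its lower bound, against -0.0019 for all genes tested. However, 7 of the genes reached the 10000 counts needed for testing through their 4OHT libraries alone, and CXCL12 through its DMSO libraries alone. A difference between treatments was thus built into their passing, and neither the count of 9 nor the median of 10.5 carries weight of its own. CCL2 passed in either treatment. In bulk RNA, fewer cells making a transcript and less of it per cell cannot be told apart.

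Among the neutrophil-attracting chemokines, IL8 was at 0.604 CPM in the lowest, 1.02 in the median and 1.16 in the highest DMSO siNT library, and at 2517, 3204 and 3723 CPM in 4OHT siNT. All 4OHT libraries were above all DMSO libraries, and the summed counts gave a 3296-fold ratio (log2 fold change 11.70 ± 0.22 SE, adjusted p = 1.18e-40). CXCL5, also known as ENA-78, rose the most of the genes with counts in DMSO, from 0.151, 0.305 and 0.478 CPM to 2844, 3112 and 3329 CPM, a 9544-fold ratio. CXCL1 went from 0.183, 0.408 and 0.62 CPM to 600, 714 and 788 CPM, a 1757-fold ratio. CXCL3 went from 0, 0.0764 and 0.183 CPM to 95.7, 110 and 121 CPM. CXCL2 reached 10.3, 12.7 and 17.2 CPM, with 0 to 3 counts in each DMSO siNT library. CXCL6 reached 41.5, 46.8 and 50.05 CPM, from 4 to 8 counts in each DMSO siNT library. The groups did not overlap for any of these 4 genes, with log2 fold changes of 10.78 (CXCL1), 10.54 (CXCL3), 8.55 (CXCL2) and 8.20 (CXCL6). Overlap of groups was not counted over all genes, here or below, so it describes single genes only.

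CXCL12 went the other way. It was at 12.6, 14.9 and 17.3 CPM in DMSO siNT and at 0.045, 0.0949 and 0.216 CPM in 4OHT siNT, where each library held 2 to 7 counts. The groups did not overlap (log2 fold change -7.16 ± 0.18 SE, adjusted p = 1.32e-35). CCL2 moved least, from 14.2, 15.1 and 15.6 CPM to 25.01, 26.7 and 31.3 CPM. All 4OHT libraries were again above all DMSO libraries, with a log2 fold change of 0.88 ± 0.09 SE (adjusted p = 3.41e-12). CCL20 had 0 counts in all 8 DMSO siNT libraries and 17.6, 21.3 and 24.9 CPM in 4OHT siNT. With a floor of 3 counts over the DMSO group, it was at least 2208-fold higher.

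**Figure D1:**
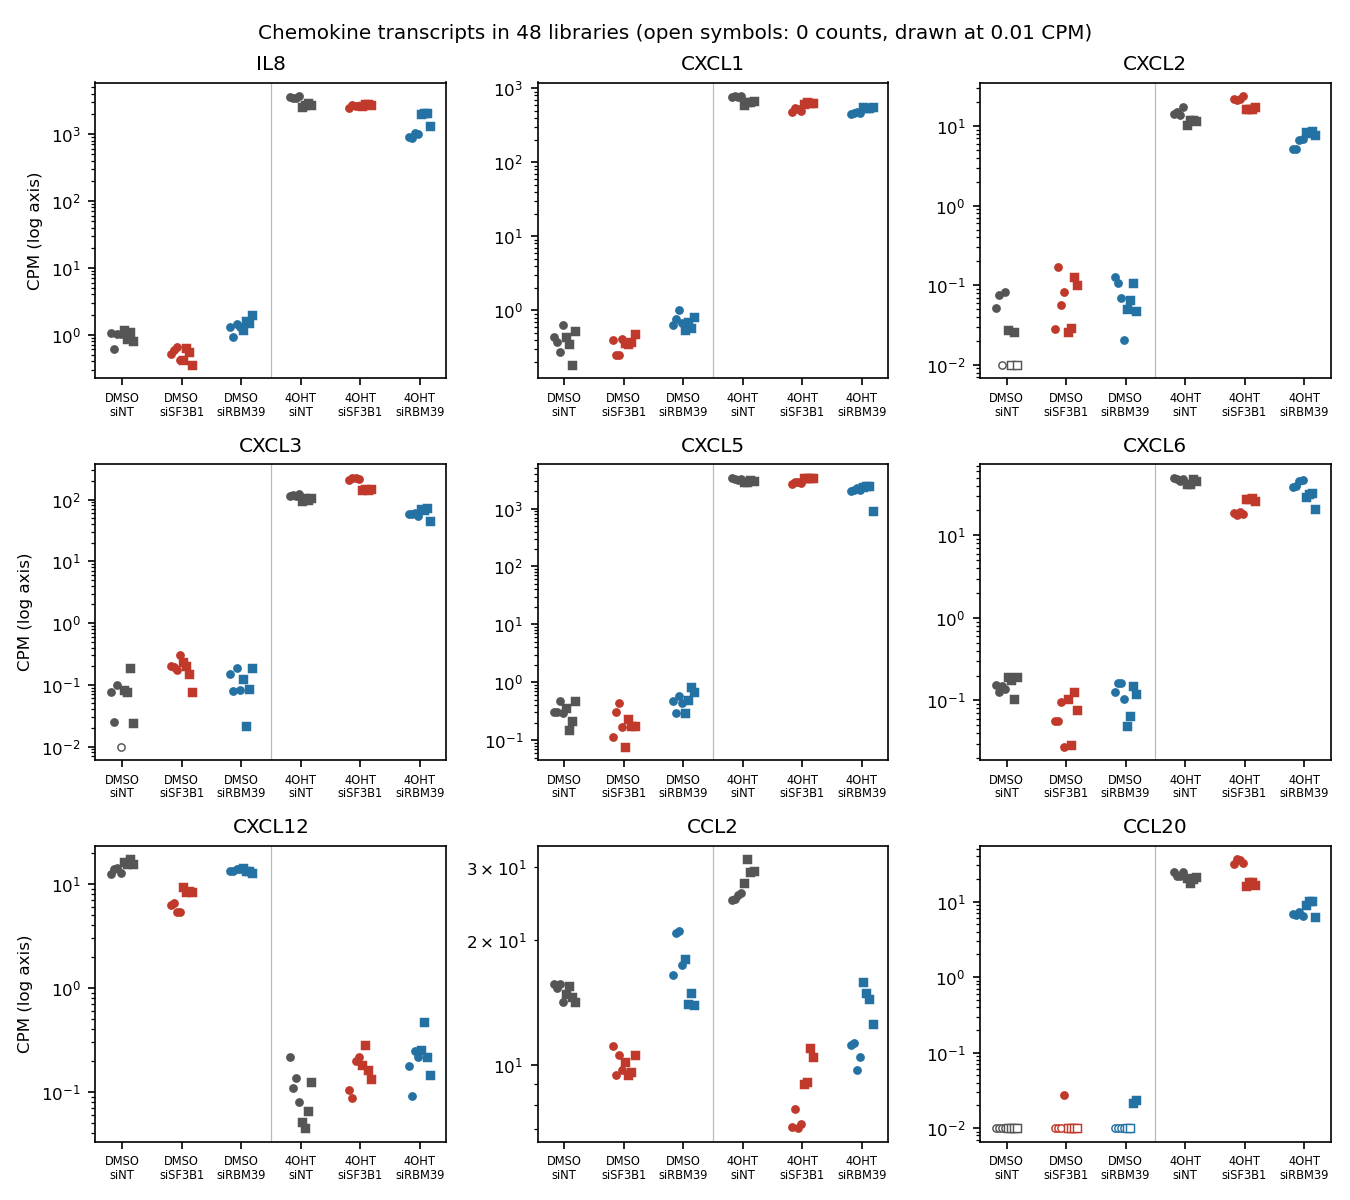
CPM (log axis) of each chemokine in the 48 libraries, one panel per gene and one column of 8 points per group, with circles for the first and squares for the second siRNA of each pair and open symbols at 0.01 CPM for libraries with 0 counts. In siNT, CXCL12 sat higher in DMSO and the other 8 genes sat higher in 4OHT, with CCL2 showing the smallest gap.

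Per length of transcript, the cRPKM of the 4OHT siNT libraries ordered the genes as IL8 (1910 ± 289, SD, n = 8), CXCL5 (1347 ± 75.1), CXCL1 (1016 ± 106), CXCL3 (130 ± 10.9), CCL2 (40.1 ± 3.42), CCL20 (28.6 ± 3.21), CXCL6 (28.5 ± 1.86), CXCL2 (19.1 ± 3.32) and CXCL12 (0.104 ± 0.0583). Neighbours in this order did not overlap in range except CCL20 and CXCL6. CCL20 (lowest 23.4) also overlapped with CXCL2 (highest 24.97), which is not its neighbour. The 9 genes took 0.719% ± 0.0732 (SD) of all counts in 4OHT siNT, against 0.00317% in DMSO siNT. That share was 0.660% in 4OHT siSF3B1 and 0.411% in 4OHT siRBM39.

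The next comparisons ask what each knockdown did in 4OHT-treated cells. With siRBM39, 8 of the 9 genes fell and CXCL12 rose, against 24.3% of all genes lower and 32.2% higher. The median log2 fold change was -0.81 for the 9 genes and 0.05 for all genes tested. With siSF3B1, CXCL2, CXCL3, CXCL12 and CCL20 rose, CXCL1, CXCL6 and CCL2 fell, and IL8 and CXCL5 did not pass the test. This 4 and 3 of 9 stands beside 39.4% of all genes higher and 37.6% lower, and the medians were 0.07 and 0.03.

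With RBM39 depleted, IL8 was at 860, 1189 and 2075 CPM, and all 8 libraries were below all 8 siNT libraries (log2 fold change -1.13 ± 0.14 SE, adjusted p = 1.11e-09). CXCL5 was at 921, 2154 and 2427 CPM, likewise below every siNT library (-0.55 ± 0.12, adjusted p = 8.43e-05). Its lowest value came from the library that stood apart, without which the log2 fold change was -0.45. CXCL1 was at 453, 506 and 560 CPM, without overlap with siNT (-0.45). CXCL3 at 44.7, 59.3 and 72.3 CPM (-0.81) and CXCL2 at 5.09, 7.25 and 8.51 CPM (-0.86) were below siNT in every library as well. CXCL6 overlapped with siNT, at 20.8, 35.8 and 47.1 CPM, and its fall of 0.33 on the log2 scale (adjusted p = 0.00578) was called under 15 of 18 alternatives. Without the library that stood apart it was -0.25 (adjusted p = 0.0123), and all 9 genes stayed called.

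With SF3B1 depleted the same family split. CXCL3 was at 141, 178 and 226 CPM, above all siNT libraries (log2 fold change 0.82 ± 0.11 SE, adjusted p = 4.78e-09). CXCL2 was at 16.3, 19.3 and 23.8 CPM (0.64, adjusted p = 8.83e-06), overlapping with siNT. CXCL6 was at 17.5, 22.4 and 28.2 CPM, below all siNT libraries (-0.94 ± 0.10, adjusted p = 2.73e-11). CXCL1 was at 474, 575 and 647 CPM and overlapped with siNT (-0.24, adjusted p = 0.0059), a call held under 16 of 19 alternatives. IL8 at 2441, 2722 and 2813 CPM gave -0.15 (95% interval -0.415 to 0.108, adjusted p = 0.293). CXCL5 at 2681, 3084 and 3423 CPM gave 0.07 (interval -0.163 to 0.294, adjusted p = 0.619). HRAS, the transgene's gene, was 0.91 higher on the log2 scale with siSF3B1 and 0.33 higher with siRBM39 in 4OHT, and its part in these results was not tested.

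CCL2 was lower with either knockdown. In 4OHT it was at 7.04, 8.43 and 10.97 CPM with siSF3B1 (log2 fold change -1.59 ± 0.09 SE, adjusted p = 2.2e-20) and at 9.72, 11.9 and 15.9 CPM with siRBM39 (-1.09 ± 0.09, adjusted p = 2.89e-14). Both groups were below all 4OHT siNT libraries. CCL20 was at 6.30, 6.99 and 10.3 CPM with siRBM39, below all siNT libraries (-1.41 ± 0.15, adjusted p = 2.78e-10). With siSF3B1 it was at 16.0, 24.99 and 36.2 CPM and overlapped with siNT (0.34, adjusted p = 0.0353), and that call was lost under 9 of 18 alternatives and turned to a called fall in 1, with siSF3B1-16 alone. CXCL12 rose with siRBM39 (1.20 ± 0.30, adjusted p = 0.000631) and siSF3B1 (0.82 ± 0.32, adjusted p = 0.0177), but from levels of 2 to 18 counts per library in all 3 groups. The siSF3B1 call on CXCL12 was held under 13 of 18 alternatives.

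**Figure D2:**
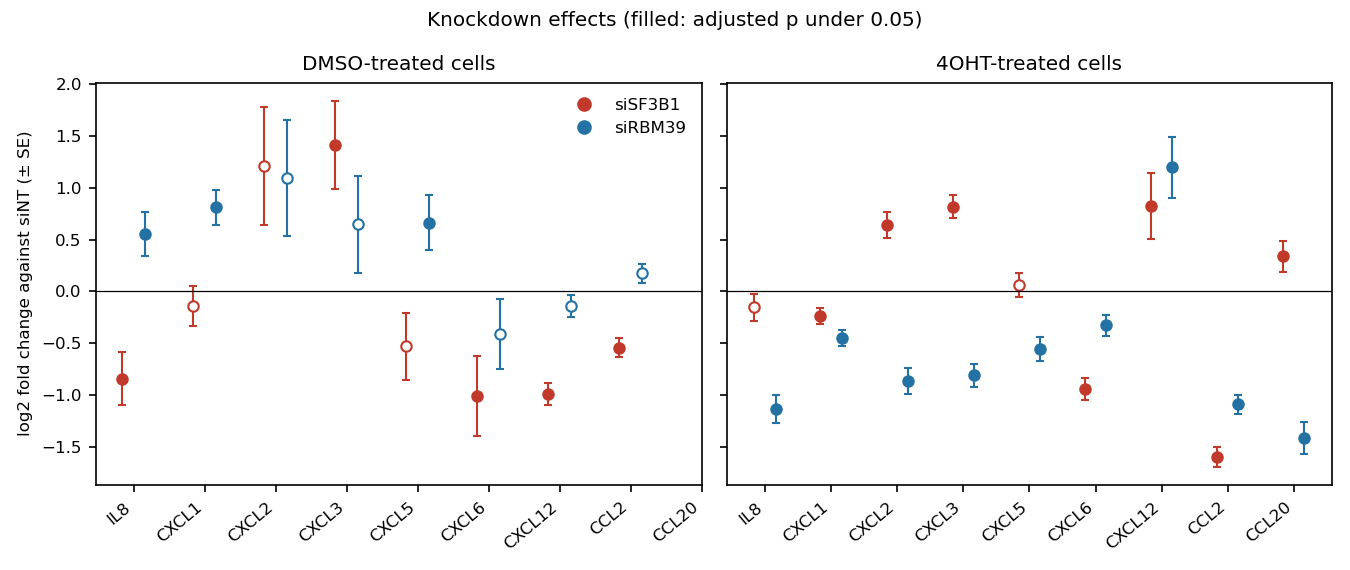
Log2 fold change against siNT (± SE) of each chemokine with siSF3B1 and siRBM39, in DMSO-treated and 4OHT-treated cells, with filled points where the adjusted p was under 0.05 and no point for CCL20 in DMSO, where each library held 0 or 1 counts. In 4OHT the siRBM39 points lie below 0 for every gene but CXCL12, while the siSF3B1 points lie on either side, from -1.59 for CCL2 to 0.82 for CXCL3 and CXCL12.

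Set against each other in 4OHT, 6 of the genes were higher with siSF3B1 than with siRBM39 and 2 were lower, beside 33.7% and 37.7% of all genes. CCL20 (1.75 ± 0.15 SE), CXCL3 (1.63 ± 0.11), CXCL2 (1.5 ± 0.13) and IL8 (0.97 ± 0.14) differed by the most. The groups did not overlap for these genes, which was not counted over all genes. CXCL5 (0.62) and CXCL1 (0.21) were also higher with siSF3B1, while CXCL6 (-0.61) and CCL2 (-0.51) were lower. For CXCL1 the call was held under 12 of 17 alternatives.

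In DMSO-treated cells the question is whether the knockdowns moved the chemokines without RAS activation. As 7 of the genes passed the count filter through their 4OHT libraries alone, the shares of all genes are not a like background here. With siSF3B1, 1 gene rose and 4 fell, against 36.5% and 36.2% of all genes. CXCL12 was at 5.37, 7.47 and 9.43 CPM, below all DMSO siNT libraries (-0.99 ± 0.11, adjusted p = 2.02e-11), and CCL2 was at 9.44, 9.94 and 11.1 CPM, likewise (-0.54 ± 0.09, adjusted p = 1.19e-06). IL8 (-0.84, 14 to 35 counts a library), CXCL6 (-1.01, 1 to 5 counts) and CXCL3 (1.41, 3 to 11 counts) were called from few reads. The CXCL6 call was held under 13 of 18 alternatives. With siRBM39, 3 genes rose and 0 fell, against 23.9% and 22.2% of all genes. No gene was lower at an unadjusted p under 0.05 in edgeR, DESeq2 or limma-voom. The 3 that rose were CXCL1 (0.81, adjusted p = 7.11e-05), IL8 (0.55, adjusted p = 0.0289) and CXCL5 (0.66, adjusted p = 0.0381). They too rested on few reads with siRBM39, at 22 to 44 counts a library for CXCL1, 34 to 84 for IL8 and 11 to 39 for CXCL5. IL8 and CXCL5 were called under 12 of 19 and 10 of 18 alternatives. CCL2 at 13.9, 16.9 and 21 CPM (0.17, adjusted p = 0.113) and CXCL12 at 12.7, 13.4 and 14.2 CPM (-0.14, adjusted p = 0.276) did not pass. Between the knockdowns in DMSO, 0 genes were higher and 5 lower with siSF3B1 than with siRBM39 (IL8, CXCL1, CXCL5, CXCL12 and CCL2), beside 33.6% and 34.1% of all genes. At an unadjusted p under 0.05 in edgeR 1 gene, CXCL3, was higher, which DESeq2 called and limma-voom did not.

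The interaction term asks whether a knockdown acted differently in 4OHT and in DMSO. For siRBM39 it was called higher for 1 gene and lower for 6, against 7.28% and 6.87% of all genes. The 6 were CCL2 (-1.26 ± 0.13 SE, adjusted p = 3.28e-10), IL8 (-1.68 ± 0.25), CXCL1 (-1.26 ± 0.18), CXCL5 (-1.22 ± 0.29), CXCL2 (-1.96 ± 0.58, adjusted p = 0.0168) and CXCL3 (-1.46 ± 0.49, adjusted p = 0.0349), and the last 2 were each called under 13 of 18 alternatives. The gene called higher was CXCL12 (1.33 ± 0.31). All but CCL2 rested on few reads in 1 treatment. Over all DMSO siNT libraries, CXCL2 held 10 counts, CXCL3 22, CXCL5 101, CXCL1 125 and IL8 296, and CXCL12 held 31 over 4OHT siNT. These genes passed the filter through the other treatment alone, so the shares of all genes are not a like background. For siSF3B1 the interaction term was called higher for CXCL12 (1.81 ± 0.34) and lower for CCL2 (-1.05 ± 0.13, adjusted p = 7.17e-09), 1 gene each, beside 17.9% and 19.9% of all genes. For CCL2 the ratio of 4OHT to DMSO, from counts summed over both siRNAs, was 1.84 in siNT, 0.861 in siSF3B1 and 0.734 in siRBM39. Their 95% intervals, which cover counting error only, were 1.78 to 1.91, 0.818 to 0.907 and 0.705 to 0.764. The ratios below 1 came mainly from 1 siRNA of each pair. Mean CPM in 4OHT and DMSO was 7.291 and 10.21 with siSF3B1-13 and 10.65 and 18.91 with siRBM39-06, without overlap of libraries. It was 9.881 and 9.948 with siSF3B1-16 and 14.44 and 15.24 with siRBM39-08, where the libraries overlapped. The difference between 4OHT and DMSO within a knockdown was not tested.

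**Figure D3:**
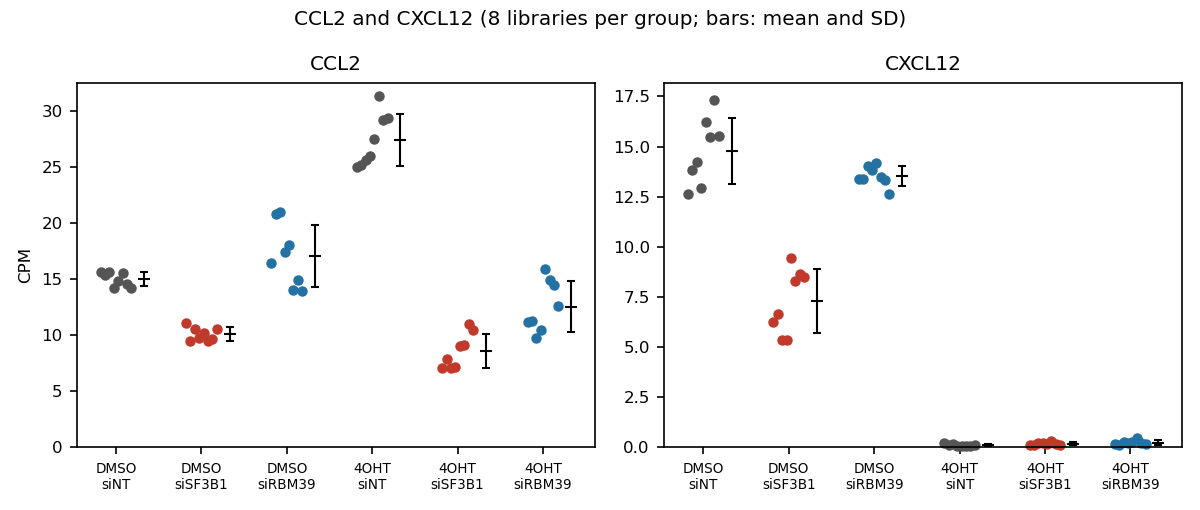
CPM (linear axis from 0) of CCL2 and CXCL12 in the 6 groups, 8 libraries each, with bars at the mean and SD. CCL2 is at 25.01 CPM or more in every 4OHT siNT library and at 15.9 CPM or less in every 4OHT knockdown library, and CXCL12 is near 0 in all 4OHT groups.

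Each siRNA was then taken alone against both siNT siRNAs. In 4OHT, siRBM39-06 moved 8 of the 9 genes and siRBM39-08 all 9, against 58.6% and 62.5% of all genes in either direction, and siSF3B1-13 and siSF3B1-16 moved 6 each, against 79.2% and 75.4%. IL8 was at 860 to 1053 CPM with siRBM39-06 (log2 fold change -1.69) and at 1325 to 2075 CPM with siRBM39-08 (-0.70, or -0.59 without the library that stood apart). CXCL6 moved with siRBM39-08 (-0.63, or -0.52 without it) and gave -0.07 (adjusted p = 0.379) with siRBM39-06. Compared directly, the siRBM39 siRNAs differed for 6 of the genes, beside 31.6% of all genes, IL8 by the most (-0.98 for siRBM39-06 minus siRBM39-08). Without the library that stood apart they differed for 8, beside 35.8% of all genes, with CXCL3 (-0.29) and CXCL5 added. CXCL5 gave 0.02 (adjusted p = 0.914) in that comparison with the library, and without it was called with the other sign, at -0.21 (adjusted p = 0.00881).

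The siSF3B1 siRNAs also differed for 6 genes in 4OHT, beside 27.9% of all genes. CCL20 was at 31.7 to 36.2 CPM with siSF3B1-13 and at 16.0 to 18.3 CPM with siSF3B1-16, and was called in opposite directions against siNT (0.77, adjusted p = 1.55e-09, and -0.26, adjusted p = 0.00864). The rise of CCL20 with siSF3B1 over both siRNAs was thus that of siSF3B1-13. CXCL3 rose with both, by 1.10 and 0.47, and CXCL2 by 0.87 and 0.41. CCL2 fell with both, by 1.80 and 1.41, and CXCL6 by 1.22 and 0.70. In CXCL3, CXCL2, CXCL6, CCL2 and CXCL1 the change was the larger with siSF3B1-13, and SF3B1 itself was at 24.5 to 27.3 CPM with siSF3B1-13 and 24.5 to 29.7 CPM with siSF3B1-16. The control siRNAs siNT1 and siNT2 differed for 1 gene in 4OHT, beside 0.35% of all genes. That gene was IL8, at 3508 to 3723 CPM with siNT1 and 2517 to 2901 CPM with siNT2 (0.40 ± 0.09 SE, adjusted p = 0.0378), a call held under 7 of 12 alternatives and lost without replicate 1, 2 or 3. DESeq2 also called CXCL1 and CXCL2, and limma-voom CXCL1.

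**Figure D4:**
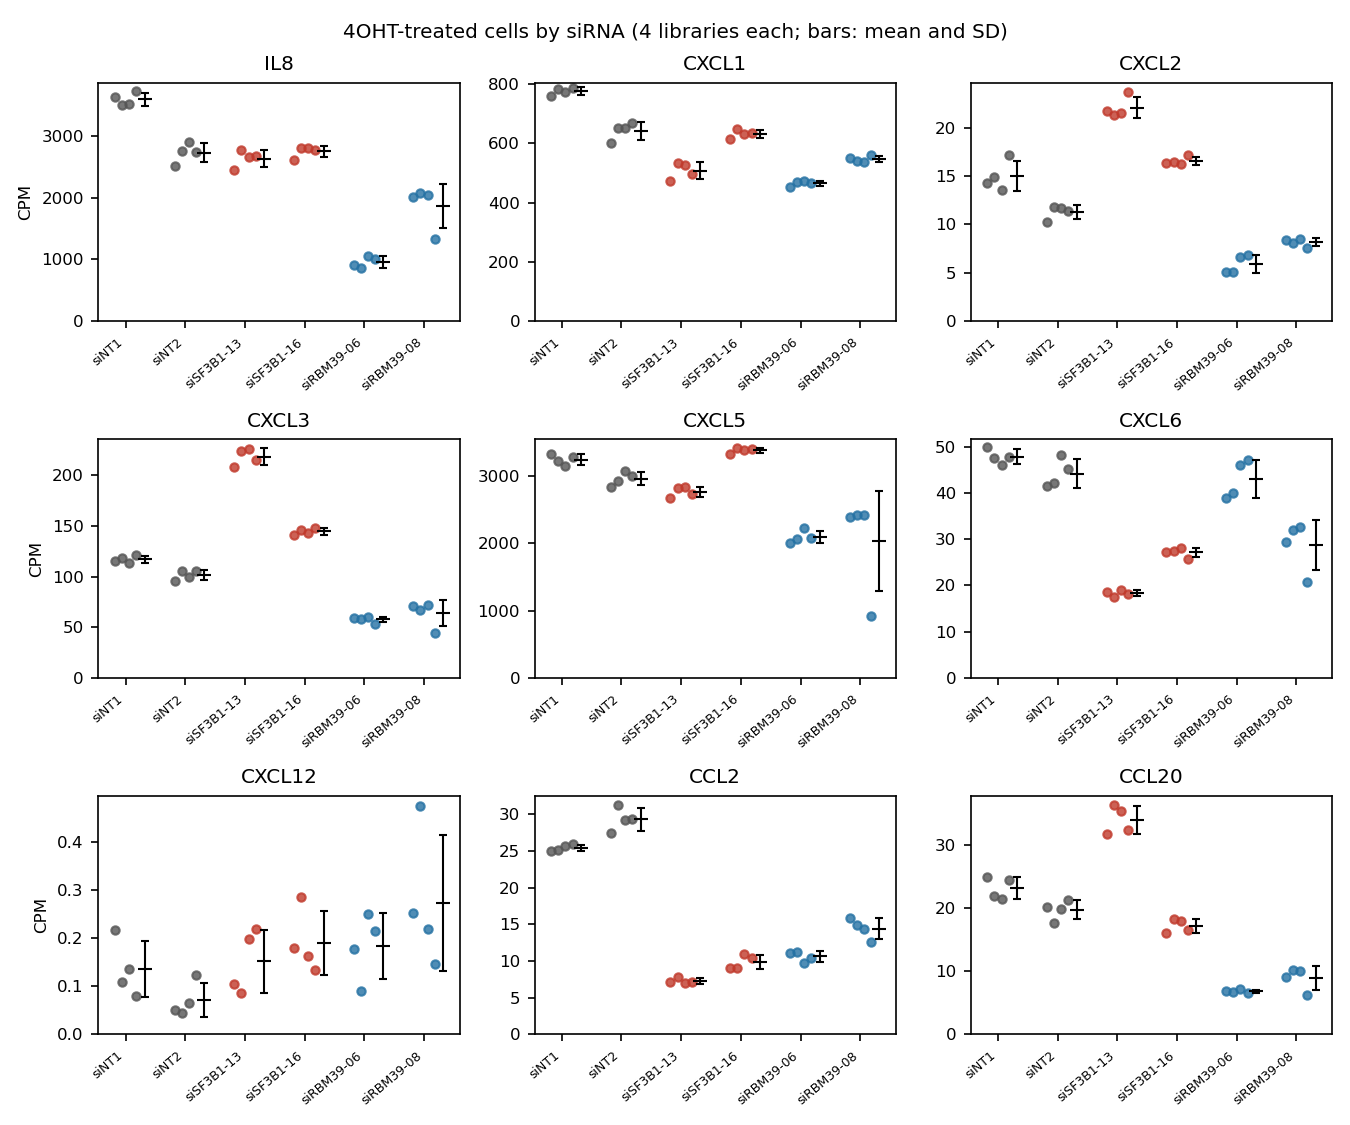
CPM (linear axes from 0) of each chemokine in 4OHT-treated cells for the 6 siRNAs, 4 libraries each, with bars at the mean and SD. CCL20 sits above the siNT siRNAs with siSF3B1-13 and below them with siRBM39-06 and siRBM39-08, and 1 siRBM39-08 library lies far below the other 3 for CXCL5.

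In DMSO, siSF3B1-13 moved 6 genes (76.2% of all genes), siSF3B1-16 moved 5 (71.9%), siRBM39-06 moved 4 (59.7%) and siRBM39-08 moved 3 (49.5%). Again, the shares of all genes are not a like background in DMSO. CXCL12 fell with both siSF3B1 siRNAs, by 1.26 and 0.75, and was the 1 gene that differed between them (37.3% of all genes). CCL2 was the 1 gene that differed between the siRBM39 siRNAs (47.6% of all genes), being 0.31 higher than siNT with siRBM39-06 and giving 0.03 with siRBM39-08. Between siNT1 and siNT2 in DMSO 0 of the 9 genes was called in edgeR (1.63% of all genes), with CXCL2 and CXCL12 at an unadjusted p under 0.05. DESeq2 called 1, CXCL12, and limma-voom called 0.

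Intron retention was asked of the splicing table, in which the percent of transcripts that keep an intron (PSI) is estimated from reads over its junctions. The table held 33 events in the 9 genes, 22 of them introns. None passed the coverage, range and balance filters over all 48 libraries. With the same filters on the 24 4OHT libraries 1 did, the 382-base intron of CCL2, which was not called with siSF3B1 (0.55% in siNT and 2.5%, limma, adjusted p = 0.0962), where 20.1% of all introns were higher. The fit was then repeated on those libraries with the coverage filter alone. That last fit and the tests of single introns were added after PSI values had been seen. It held 12 introns of these genes, of which 3 were called higher by at least 5 points with siSF3B1, against 9.76% of 29229 introns, and 0 with siRBM39, against 1.94% (limma). At any size, 8 and 0 of the 12 passed, against 25.1% and 4.63% of all introns, and with siRBM39 0 had an unadjusted p under 0.05. These shares were not matched for read depth. IL8 intron 2, with 51129 reads lacking the intron in 4OHT siNT, passed with siSF3B1 at a difference of 0.312 points. The part of depth in these counts was not tested.

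In CXCL3, intron 3 (815 bases) was kept in 1.42% ± 0.801 (SD, n = 8) of transcripts in 4OHT siNT and in 16.8% ± 3.4 with siSF3B1, with libraries from 0.36 to 2.82% and from 12.5 to 21.9%. In CXCL5, intron 1 (134 bases) went from 0.405% to 9.90% and intron 3 (356 bases) from 0.288% to 5.82%. None of the siSF3B1 libraries overlapped with siNT for these 3 introns, which was not counted over all introns. For CXCL5 intron 1, the read balance between the intron ends had p under 0.05 in 8 of 8 siSF3B1 and 4 of 8 siNT libraries, so its values are less certain. The same holds for CXCL1 intron 3, with 5 of 8 and 3 of 8 libraries, which limma did not call (adjusted p = 0.0652). Some libraries also failed this balance for CXCL5 intron 2 (4 of 8 siSF3B1 and 2 of 8 siNT). For CXCL5 intron 3 and for CXCL1 introns 1 and 2 it was 3 of 8 and 1 of 8 each, and for CXCL3 intron 3 it was 1 of 8 and 0 of 8. No library failed for IL8 introns 1 and 2. Over every intron of the 9 genes covered in all 16 libraries of a comparison, 9 of 14 were higher with siSF3B1 and 0 of 12 with siRBM39 (exact permutation test, two-sided, adjusted over 26 comparisons, smallest possible p = 0.000155). The exact test was not run on all introns, so its counts have no share of their own beside them. It shuffled the 16 libraries one by one, although 4 libraries share each siRNA. Its p-values thus measure the spread between these libraries and not between siRNAs. With siRBM39, 1 of the 12 had an unadjusted p under 0.05 in that test, CXCL5 intron 3 at 0.288% and 0.426%. The 9 lay in IL8 (introns 1 and 2), CXCL1 (1, 2 and 3), CXCL3 (3) and CXCL5 (1, 2 and 3), and the differences ran from 0.312 to 15.3 points. CXCL3 intron 2 was at 11.7% in siNT and 12.9% with siSF3B1 (exact permutation test, adjusted p = 0.766), and IL8 intron 3 was at 1.19% and 1.29%.

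By siRNA, CXCL5 intron 1 was at 12.45 to 13.6% with siSF3B1-13 and 6.10 to 7.45% with siSF3B1-16, and intron 3 at 6.96 to 8.44% and 3.39 to 4.38%. Of the 14 introns, 3 had no overlap between the 2 siRNAs, all in CXCL5 and all higher with siSF3B1-13. Overlap was not counted over all introns, so the 3 of 14 has no share beside it and nothing is concluded from it. The transcript level of CXCL5 gave 0.07 against siNT while its introns 1 and 3 rose, and that of CXCL3 rose by 0.82 while its intron 3 rose.

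The last 50 bases of 4 introns are shown, as these hold the 3′ splice site region where the U2 machinery acts. They were read from GRCh37, with the terminal AG in capitals, for the introns of CXCL3 and CXCL5 called above and for intron 3 of CXCL1, the paralog of CXCL3, which went from 0.71% to 1.49%. Introns were matched to the splicing table by gene and length. The stretches were chr4:74902995-74903044 (minus strand) for CXCL3 intron 3, chr4:74736188-74736237 (plus) for CXCL1 intron 3, chr4:74864056-74864105 (minus) for CXCL5 intron 1 and chr4:74863373-74863422 (minus) for CXCL5 intron 3.
CXCL3 intron 3: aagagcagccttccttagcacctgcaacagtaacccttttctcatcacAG
CXCL1 intron 3: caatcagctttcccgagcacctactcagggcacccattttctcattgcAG
CXCL5 intron 1: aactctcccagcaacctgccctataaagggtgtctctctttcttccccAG
CXCL5 intron 3: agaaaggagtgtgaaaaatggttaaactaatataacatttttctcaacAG
Position by position and without gaps, the CXCL1 and CXCL3 intron 3 stretches matched at 22 of 50 bases (44%). A shift of 1 base turns matches into mismatches in such a count, and the letters gcacct start 1 base apart in these stretches. No gapped alignment was made, so the 44% does not measure how far they diverged. The intron 1 stretches of CXCL1 and CXCL3 matched at 44 of 50 and their intron 2 stretches at 46 of 50. C and T made up 60.4% of the 48 bases before the AG in CXCL3 intron 3, 64.6% in CXCL1 intron 3, 68.8% in CXCL5 intron 1 and 39.6% in CXCL5 intron 3.

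Of the other genes of the pathway, 37 further chemokine genes were in the table and 1, CXCL10, a CXCR3 ligand, had enough counts to be tested. It was at 0.951, 1.25 and 1.91 CPM in DMSO siNT and 28.7, 31.2 and 34.6 CPM in 4OHT siNT (log2 fold change 4.60), and in 4OHT it fell by 1.37 with siSF3B1 and by 0.74 with siRBM39. Of 23 chemokine receptor genes 1 was tested, CCR1, which rose with 4OHT (6.47) and was higher with siSF3B1 (0.56) and siRBM39 (0.49).

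Of 29 genes from IL-1 to NF-kB, 26 were tested, and 16 rose and 7 fell with 4OHT, beside 39% and 39.1% of all genes. The median log2 fold change was 0.53, against -0.0019 over all genes. IL1B (13.41), IL1A (7.49), IRAK2 (2.99) and NFKBIZ (2.96) rose the most. With siSF3B1 in 4OHT 10 rose and 11 fell, beside 39.4% and 37.6% of all genes, the cytokine IL1A (-0.78) and the kinase adaptor IRAK2 (-0.81) among the latter and CEBPB (1.30), IL1R1 (1.15) and IL1B (0.33) among the former. With siRBM39 in 4OHT 7 rose and 6 fell, beside 32.2% and 24.3% of all genes. TRAF6 (0.56), CEBPB (0.55) and IL1R1 (0.54) were higher and IL1B (-0.79), IRAK4 (-0.78), IRAK2 (-0.71) and IL1A (-0.50) lower. Of 10 tested factors of mRNA decay and stability, most of which bind AU-rich elements, 3 rose and 4 fell with 4OHT, beside 39% and 39.1% of all genes. The RNase ZC3H12A rose by 4.35 and the decay factors ZFP36L2 and ZFP36 fell by 2.31 and 1.57. With siSF3B1 in 4OHT 6 rose and 2 fell (39.4% and 37.6% of all genes), ZFP36L2 (1.24) rising the most and TIA1 (-0.44) and ZC3H12A (-0.41) being those that fell. With siRBM39 6 rose, ZFP36L2 (0.75) the most, and TIA1 (-0.24) fell, beside 32.2% and 24.3% of all genes.

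By likeness of pattern over the 12 means of treatment and siRNA (Pearson's r of log2 CPM across all genes tested, a description), CXCL5 was the closest gene to IL8 (0.998) and CXCL1 was the closest to CXCL5 (0.999), while CXCL1 was closest to CTSS (0.999). CXCL6 was closest to IL1A (0.998), CXCL2 to PBEF1 (0.995), CXCL3 to SERPINB2 (0.997) and CCL20 to C8orf4 (0.997), while CXCL12 was closest to MDK (0.995). Each of these genes had 361 to 489 genes above 0.95, all sharing the contrast of 4OHT and DMSO. CCL2 had 1, NUP93 (0.951).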

How the data were processed

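RNA-seq was done on 48 libraries, 8 in each of 6 groups of treatment and siRNA target. The submitters' processing notes name hg19, edgeR and limma. The authors deposited a table of gene counts, cRPKM values (RPKM corrected for mappable positions) and a normalised CPM signal, and, from their splicing pipeline, the percent of transcripts that include an event (PSI) with its coverage score. The normalised CPM equalled the count plus 0.5 over the TMM-scaled library size plus 1 for 11428 of 11428 genes, within 1e-06. Here CPM is the count over the library total (31467221 to 52734636 counts). Genes with at least 10000 counts in total were fitted with 6 group means in edgeR 4.0.16 (R 4.3.3; TMM, quasi-likelihood F test), with Benjamini-Hochberg adjustment over 9991 genes and a threshold of 0.05. A second fit had 1 mean for each treatment and siRNA. Limma 3.58.1 was used for splicing events and, with DESeq2 1.42.0, for alternatives, and SciPy 1.17.1 for exact tests. The scripts were tested on simulated data. Intervals of count ratios cover counting error only, and those of log2 fold changes are 95% intervals from the standard error of the fit.

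The members and gene lists were chosen with earlier results of these data known. Named genes were the 9 chemokines, the tested genes of the other chemokine and receptor lists, up to 4 called genes with the largest change in each pathway list, and the 3 genes closest in pattern, from which the text names a part. IL1A, IL1B, CEBPB and IL1R1 under the knockdowns, TIA1 with siRBM39 and CXCL5 intron 3 and CXCL1 intron 3 were named after their values were seen. For 4 libraries titled siNT2, another label reads siNT1, and the title was used. The labels number 4 replicates for each siRNA. Samples with the same number did not deviate together (median correlation 0.0123 over 264 pairs, 78 of them over 0.1), so they were not paired. Promoters came from RefSeq GRCh38.p14 and introns from a GRCh37 annotation.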

Additional observations from a re-analysis of the deposited data

Results flagged for a closer look

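Among 53 groups tested for a sample far from the others, 3 had one, and chance flags about 1 in 20 groups. CXCL5 was at 921.2 CPM in the 4OHT-treated siRBM39-08 replicate 4, far below the other 7 libraries of its group. CXCL12 was at 0.4739 CPM in the 4OHT-treated siRBM39-08 replicate 2, from 18 counts. CCL20 was at 0.02766 CPM in the DMSO-treated siSF3B1-13 replicate 4, which is 1 count where the other 7 libraries had 0.

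The effect of a knockdown differed between 4OHT-treated and DMSO-treated cells by the interaction term (edgeR, adjusted p under 0.05) for 2 genes with siSF3B1 and 7 with siRBM39. With siSF3B1 the difference was 1.81 on the log2 scale for CXCL12 and -1.05 for CCL2. With siRBM39 it was -1.68 for IL8, -1.26 for CXCL1, -1.96 for CXCL2, -1.46 for CXCL3, -1.22 for CXCL5, 1.33 for CXCL12 and -1.26 for CCL2. Apart from CCL2, these genes had few reads in one of the treatments, as given above.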

How the results depend on the processing

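Of 2872 values recomputed under alternatives, 2606 kept their direction and side of the threshold, 162 lost a call, 66 gained one and 38 changed sign, of which 35 had no call in either setting. The rise or fall of each gene with 4OHT held under every alternative with a test, apart from CCL2 under a 2-fold minimum. With that minimum, the called genes fell to 2 (siSF3B1 in DMSO), 1 (siSF3B1 in 4OHT), 0 (siRBM39 in DMSO), 4 (siRBM39 in 4OHT), 2 and 3 (siSF3B1 against siRBM39 in DMSO and 4OHT), and the calls by siRNA to 18 of 126. Requiring 5 counts in each library dropped 6 of the 9 genes, which left 3 called with 4OHT, 2 and 2 with siSF3B1 in DMSO and 4OHT, 3 with siRBM39 in 4OHT, 1 and 3 interactions with siSF3B1 and siRBM39, 3 and 3 between the knockdowns, and 25 by siRNA. With siRBM39 in DMSO, 1 gene was called against siNT1 alone and 5 by limma on the deposited normalised CPM, which called 4 with siSF3B1 in 4OHT. For splicing, the filters kept 0 events and coverage alone gave 3 calls.

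Leaving out each replicate number in turn, the called genes ran from 9 to 9 with 4OHT, 4 to 5 and 5 to 6 with siSF3B1 in DMSO and 4OHT, 1 to 3 and 9 to 9 with siRBM39, 2 to 3 and 5 to 6 for the interactions, 5 to 5 and 7 to 8 between the knockdowns, and 53 to 66 by siRNA. The replicate block left the counts at 9, 5, 7, 3, 9, 2, 7, 5 and 8 and at 62 by siRNA, and changed no call. The cause of these changes was not tested.

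Single values that changed sign were mostly small. With siSF3B1 in 4OHT, CXCL5 (0.0651) was -0.0132 by library size only, -0.0677 with the first siRNA of each target and -0.0241 against siNT1, IL8 (-0.153) was 0.0617 against siNT2, and CCL20 (0.338) was -0.292 with the second siRNA. The CXCL6 interactions gave -0.0123 (siSF3B1, first siRNA), -0.127 and -0.122 (both targets, siNT1) and -0.0035 (siRBM39, second siRNA). In DMSO, CXCL1 with siSF3B1-16 (-0.0276) was 0.0345 by limma-voom, 0.0313 with at least 1 count and 0.00532 with 5 counts in each library, and CXCL12 between the siRBM39 siRNAs was 0.0241 by library size only. CXCL5 between the siRBM39 siRNAs in 4OHT (0.0246) was -0.206 without the library that stood apart.

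Leaving out a replicate number also turned some signs. Interactions ran from -0.0867 to 0.44 (CXCL6, siSF3B1), -0.168 to 0.0103 (CXCL1, siSF3B1) and -0.0849 to 0.306 (CXCL6, siRBM39), and CXCL2 between the knockdowns in DMSO from -0.227 to 0.457. In DMSO against siNT, CXCL5 with siSF3B1-13 ran from -0.631 to 0.114, CXCL1 with siSF3B1-16 from -0.202 to 0.0761, CCL2 with siRBM39-08 from -0.0606 to 0.078 and CXCL3 with siRBM39-08 from -0.21 to 1.21. Between the siSF3B1 siRNAs in DMSO, CXCL2 ran from -0.508 to 0.828 and CXCL3 from -0.0107 to 0.68. Between the siRBM39 siRNAs in DMSO, CXCL2 ran from -0.271 to 0.499, CXCL12 from -0.0463 to 0.0354, CXCL3 from -0.1 to 0.846 and CXCL1 from -0.0263 to 0.365. Between siNT1 and siNT2 in DMSO, CXCL5 ran from -0.119 to 0.607 and IL8 from -0.198 to 0.0277. In 4OHT, CXCL12 ran from -0.584 to 0.191 between the siSF3B1 siRNAs and from -0.885 to 0.00353 between the siRBM39 siRNAs, and CXCL5 between the latter from -0.197 (without replicate 4, called) to 0.112.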
